A study of Homo sapiens with 3 samples.

Results

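The genes of antigen presentation by the major histocompatibility complex (MHC) were examined in Rh-30, an established cell line of alveolar rhabdomyosarcoma (ARMS) that carries the PAX3-FOXO1 fusion gene. The list held 33 genes, and its probe sets were found by pairing the listed symbols with the platform annotation. Of these, 31 genes had at least 1 probe set paired with that gene alone, out of 19775 such genes on the array. PSME2 had 1 probe set that was also paired with a microRNA gene, and IFI30 was not analysed here. Where a gene had more than 1 such probe set, the brightest stood for it, judged by the mean log2 intensity of all arrays. The cells were transfected with control siRNA (siCont), with siRNA against the PAX3-FOXO1 fusion point (siPF) or with siRNA against B7-H3 (siB7-H3), each at 5 nM, and RNA was taken after 24 h. All 3 groups were the same line grown in the same medium, 1 siRNA stood for each target, and 1 Affymetrix U133 Plus 2.0 array was made per group. With 1 array a group there was no replicate error and no test, so each difference lies between 2 arrays and siCont is shared by both comparisons. The arrays read RNA of whole cultures, in which fewer cells of a kind and less RNA per cell cannot be told apart. Where 3 intensities of a gene follow each other without labels, they are those of siCont, siPF and siB7-H3, and a pair of log2 differences is that of siPF and then of siB7-H3.

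Nearly all cells show peptides of their own proteins on MHC class I, which is built of an HLA heavy chain and B2M. The proteasome cuts the peptides, the TAP transporter carries them into the endoplasmic reticulum, ERAP1 and ERAP2 trim them, and a loading complex fits them into the groove. MHC class II shows peptides of engulfed proteins and is made mainly by professional antigen-presenting cells, where CIITA switches its genes on. NLRC5 plays the corresponding part for class I, and interferon gamma induces both arms.

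Intensities were deposited on a linear scale, and a mean intensity of 135 over the arrays served as the level limit. This is the mean, on the log2 scale, of the 60th percentile of all probe sets on each array, and it is not a detection call. The array medians lay between 70.6 and 71.7, and 10181 of the 19775 genes reached the limit. CD276, the gene of B7-H3, had 1486 on the siCont array, 1381 on siPF and 362 on siB7-H3, and FOXO1, the 3' partner of the fusion, had 678, 249 and 650.0. The muscle lineage markers MYOD1, DES, FGFR4 and CHRNA1 reached the limit on average, as did MYOG, with 605 on the siCont array, 3386 on siPF and 1269 on siB7-H3, whereas MYF6 did not. None of 9 measured markers of professional antigen-presenting and other blood cells reached it. The highest value among these 9 was 101, and their summed intensity was 359 on the siCont array, 368 on siPF and 349 on siB7-H3. The 62 control probe sets of the arrays, some of them for transcripts added during preparation, had a median log2 difference to siCont of 0.20 in siPF and 0.25 in siB7-H3. Their part in the small positive differences given for bright genes was not tested.

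The promoter sequences are shown for B2M and TAP1, class I side genes with the interferon response element, and for HLA-DMB, a class II gene without it. They were chosen because the element was found in part of the class I side and in no class II gene that had a window. RefSeq windows on GRCh38.p14, from 250 bases before to 50 bases after a transcript start, were found for 27 of the 33 genes. Capitals mark the interferon response element (GAAA, any 2 bases, GAAA, on either strand) and CCAAT (on either strand), the Y box sequence bound by NF-Y. The last 200 bases before the start are printed 5′ to 3′ on the strand of the gene. B2M lies on the plus strand at chr15:44711317-44711516, TAP1 on the minus strand at chr6:32853705-32853904 and HLA-DMB on the minus strand at chr6:32941029-32941228.
B2M: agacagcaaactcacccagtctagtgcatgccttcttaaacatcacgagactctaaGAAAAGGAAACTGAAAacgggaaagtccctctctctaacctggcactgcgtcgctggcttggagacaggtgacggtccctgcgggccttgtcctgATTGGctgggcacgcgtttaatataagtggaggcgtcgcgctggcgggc
TAP1: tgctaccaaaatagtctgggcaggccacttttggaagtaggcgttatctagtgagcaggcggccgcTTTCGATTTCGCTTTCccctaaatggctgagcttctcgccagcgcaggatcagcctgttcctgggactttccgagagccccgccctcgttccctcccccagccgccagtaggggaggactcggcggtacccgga
HLA-DMB: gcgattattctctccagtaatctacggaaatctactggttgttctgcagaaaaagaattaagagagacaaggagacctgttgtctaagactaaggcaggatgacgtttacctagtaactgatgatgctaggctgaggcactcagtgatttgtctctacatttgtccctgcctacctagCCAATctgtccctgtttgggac

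In B2M and in TAP1 a pair of overlapping matches to the interferon response element formed 1 stretch, and HLA-DMB held CCAAT alone. The start of PSMB9 lies 488 bases from that of TAP1 on the opposite strand, so both genes are read outward from the same stretch of chromosome 6. Over the list, 12 of the 27 genes had the element in at least 1 window: B2M, HLA-F, TAP1, TAP2, TAPBP, ERAP1, ERAP2, PSMB8, PSMB10, PSME1, PSME2 and RFX5. By window, it was in 12 of the 41 windows of these genes and in 3.57% of all 35116 windows of the table. Among the listed genes with a probe set of their own and a promoter window, 11 of 19 at or over the level limit and 0 of 6 under it had the element. Over all genes with a window the share was 3.80% at or over the limit and 4.21% under it. CCAAT was present in 17 of the 27 genes, on the class I side as on the class II side, which was 20 of the 41 windows against 34.6% of all windows. The GAS motif TTCNNNGAA, on either strand, was in 3 of the 41 windows, those of HLA-DQA1, PSMB8 and TAP1, and in 7.66% of all windows. On the class I side, HLA-B, HLA-C, HLA-G, PSMB9, CALR and CANX had windows but no match to the interferon response element. A match describes the letters given and does not show that a factor was bound, and other forms of a motif were not searched for.

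The level limit split the list by function. All 6 class I genes, all 8 genes of peptide loading and trimming, the 4 measured proteasome genes and 4 of the 5 transcriptional regulators reached it, together with CTSS of the class II group. The 8 genes under it were CIITA, CD74, HLA-DMA, HLA-DMB, HLA-DPA1, HLA-DPB1, HLA-DQA1 and HLA-DRA. No gene of the 23 at or over the limit was 2-fold higher or lower in either knockdown. Among all genes at or over the limit, 1.08% were at least 2-fold higher and 0.805% at least 2-fold lower in siPF, and 0.619% and 0.599% in siB7-H3, and each share comes to fewer than 1 gene in 23. The median log2 difference of the 23 genes was 0.08 in siPF and 0.08 in siB7-H3, against 0.02 in both comparisons for all genes of that level. Of the 23 genes, 14 lay above siCont in siPF and 15 in siB7-H3, against 52.7% and 53.1% of all genes at or over the limit. The differences of the class I side were thus small and went both ways.

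**Figure D1:**
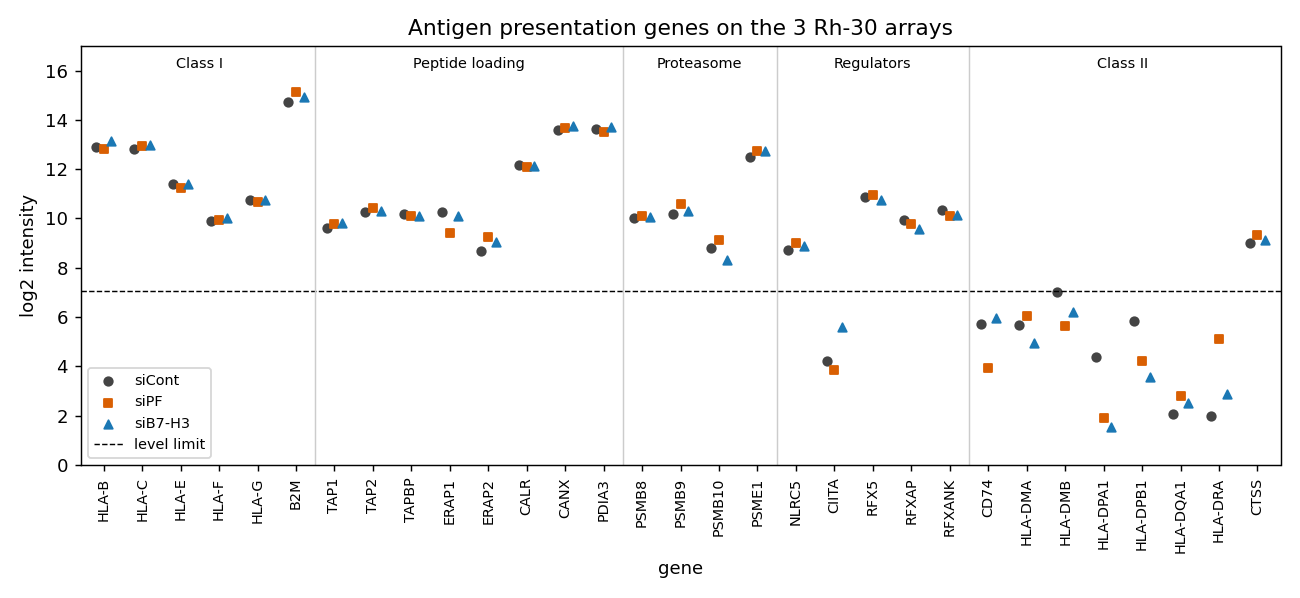
Log2 intensity (vertical axis) of the 31 measured genes on the siCont, siPF and siB7-H3 arrays, 1 symbol per array, grouped by function. The 3 symbols of a gene lie close together at or over the dashed level limit (an intensity of 135) and spread apart under it. Heights of different genes come from different probe sets and are not to be compared with each other.

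At the probe sets that stood for them, the class I heavy chains and B2M were at high intensity on every array. They differed little between the arrays. HLA-B, a classical heavy chain that presents peptides to CD8+ T cells, had an intensity of 7586 on the siCont array, 7165 on siPF and 9045 on siB7-H3. Its log2 difference to siCont was -0.08 in siPF and 0.25 in siB7-H3. HLA-C, the classical heavy chain that is also read by inhibitory receptors of NK cells, had 7134, 7790 and 8141, which gave log2 differences of 0.13 and 0.19. At these probe sets siB7-H3 was the highest of the 3 arrays, at 1.19 times siCont for HLA-B and 1.14 times for HLA-C. Among the other probe sets of both genes, only an HLA-C one with 6201, 6724 and 6848 also had siB7-H3 highest. The other HLA-B probe sets gave log2 differences of -0.01 and 0.08 in siB7-H3, and those of HLA-C gave 0.04, 0.14 and -0.12.
HLA-E, which shows leader peptides of other class I chains to NK cells, had 2716 on the siCont array, 2427 on siPF and 2730 on siB7-H3. HLA-F, a nonclassical chain, had 954, 992 and 1034 at the probe set that stood for it. A dim HLA-F probe set had 42.3, 43.8 and 27.9, with log2 differences of 0.05 and -0.60. HLA-G, known for its role at the border of fetus and mother, had 1722, 1635 and 1717 at the probe set that stood for it. At the probe sets that stood for them, the log2 differences of HLA-E, HLA-F and HLA-G lay between -0.16 and 0.12. B2M, the light chain that every class I molecule needs, had 27000.3 on the siCont array, 35831 on siPF and 31530 on siB7-H3, with log2 differences of 0.41 and 0.22. It was higher on both knockdown arrays, also at a second bright probe set, which gave 25698, 29872 and 30954. The dimmest B2M probe set, with 204, 219 and 209, gave log2 differences of 0.10 and 0.03. After quantile normalization the log2 difference of B2M was 0.10 in siPF and 0.0046 in siB7-H3, so its size depended on how the top of the scale was set.

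Probe sets of the heavy chains could not be taken as readings of single genes. Of the 17 probe sets paired with HLA-B, HLA-C, HLA-E, HLA-F or HLA-G, 15 carried the suffix by which the manufacturer marks probes that can match other transcripts, and the 5 genes resemble each other in sequence. The only HLA-F probe set without this suffix was under the level limit, so HLA-F reached the limit only at probe sets that carry the suffix. The 16 heavy chain probe sets at or over the limit ranged from -0.28 to 1.04 in log2 difference in siPF, and in siB7-H3 from -0.31 to 0.34. A single HLA-G probe set set the upper end. It had 764 on the siCont array, 1571 on siPF and 618 on siB7-H3, whereas the remaining HLA-G probe sets gave -0.08, 0.28 and -0.28 in siPF. It was the only one of 53 probe sets of the list at or over the limit that passed 2-fold in either comparison.

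Genes of peptide transport, trimming and loading were also near siCont, apart from the aminopeptidases. TAP1 and TAP2, the subunits of the peptide transporter, had 789 and 1222 with siCont, 866 and 1355 with siPF, and 905 and 1266 with siB7-H3. The log2 differences of TAP1 were 0.13 and 0.20, and those of TAP2 were 0.15 and 0.05. TAPBP, or tapasin, which holds class I at the transporter, had 1158, 1104 and 1089. These small differences were not kept at all bright probe sets. A second one of TAPBP gave 0.19 and 0.22, and the other bright ones of TAP2 gave 0.22 and -0.0040 in siPF and 0.23 and -0.36 in siB7-H3. TAP1 had 1 probe set.
CALR, CANX and PDIA3 encode calreticulin, calnexin and ERp57, general folding factors of the endoplasmic reticulum that also serve class I. CALR had 4563 on the siCont array, 4345 on siPF and 4490 on siB7-H3, CANX had 12454, 13009 and 13802, and PDIA3 had 12608, 11591 and 13369. Their log2 differences lay between -0.12 and 0.15. Other bright probe sets of these genes reached -0.29 for CALR and -0.41 for PDIA3 in siPF, and -0.32 for CANX in siB7-H3.

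Among the 23 bright genes ERAP1 had the lowest log2 difference in siPF and ERAP2 the highest. ERAP1, which trims peptides to the length that fits class I, had 1226 on the siCont array, 673 on siPF and 1107 on siB7-H3, with log2 differences of -0.86 and -0.15. Its siPF value stood apart from the other arrays. Another ERAP1 probe set gave 330, 208 and 242, with log2 differences of -0.67 and -0.45. A further bright probe set gave 531, 498 and 545, with -0.09 and 0.04, so the probe sets did not give 1 answer for siPF. The 2 dim ERAP1 probe sets gave -0.45 and 0.30 in siPF.
ERAP2, a related aminopeptidase encoded beside ERAP1 on chromosome 5, had 405 on the siCont array, 612 on siPF and 535 on siB7-H3, with log2 differences of 0.60 and 0.40. Its other bright probe sets gave 0.14 and 0.10 in siPF and -0.05 and 0.12 in siB7-H3, so among the 3 bright ones the larger values came from 1. The dim ERAP2 probe sets gave 0.57 and -0.27 in siPF and 0.02 and 0.05 in siB7-H3. ERAP1 and ERAP2 were the only genes of the 23 past 1.5-fold in siPF, and none of the 23 was in siB7-H3. Among all genes at or over the limit, 9.07% were past 1.5-fold in siPF and 6.99% in siB7-H3. When all genes were put into 10 bins of equal size by mean level, the SD of the siPF log2 differences was 0.338 in the bin of ERAP1 and 0.378 in that of ERAP2.

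**Figure D2:**
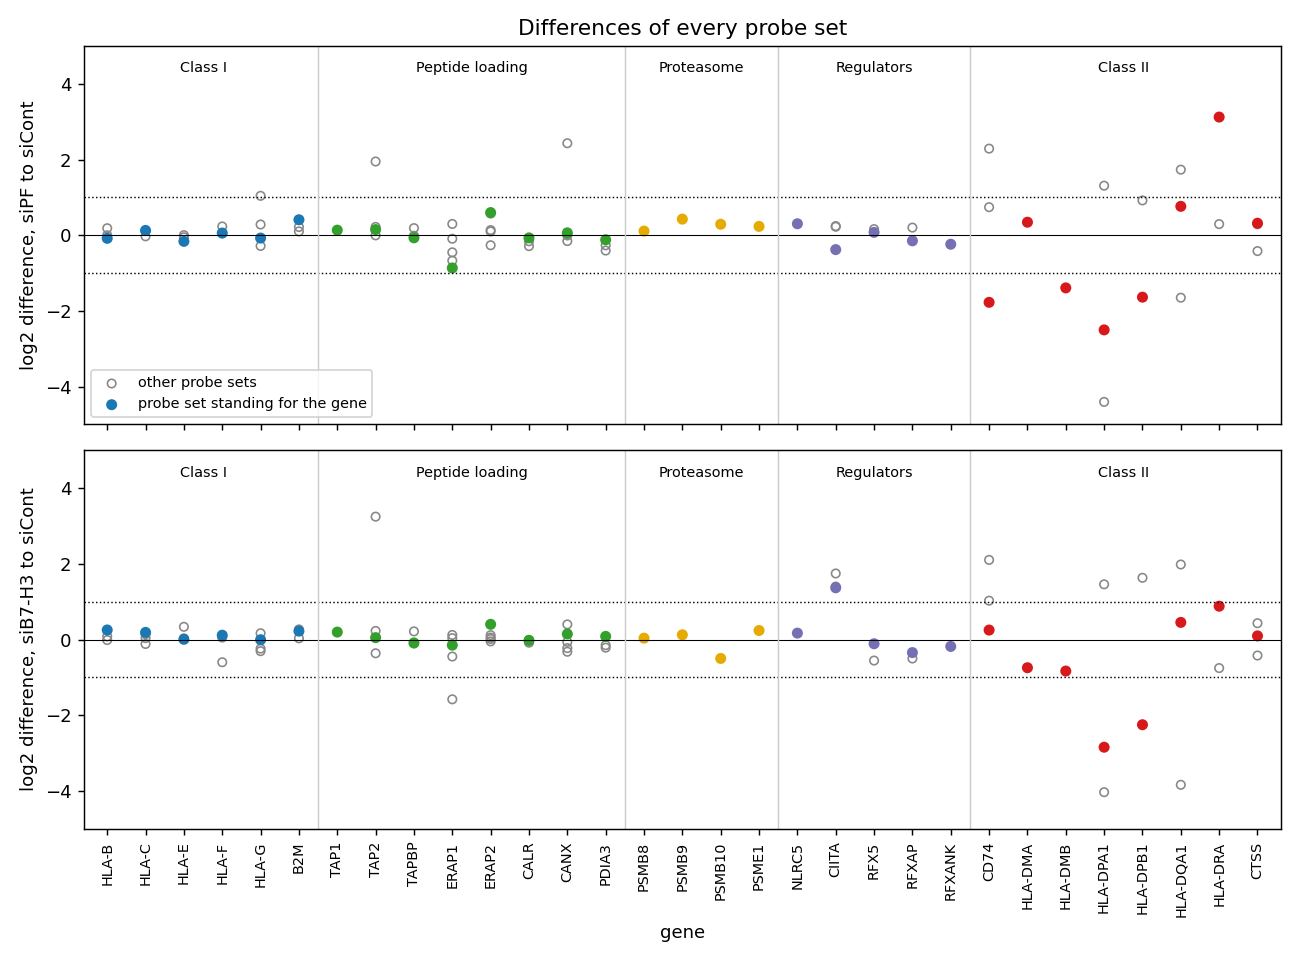
Log2 difference to siCont in siPF (upper panel) and siB7-H3 (lower panel) for each gene (horizontal axis). Filled points are the probe sets that stood for a gene and open points the other probe sets of the same gene, with 2-fold marked by dotted lines. The points of the class I, loading, proteasome and regulator genes lie mostly near 0. Past 2-fold among them are CIITA in siB7-H3 and single open probe sets of HLA-G, TAP2, CANX and ERAP1. Of the filled points of these groups within 2-fold, only those of ERAP1 and ERAP2 in siPF are past 1.5-fold. Among the 6 dim genes with more than 1 probe set, the points of 5 genes lie on both sides of 0 in siPF and those of 4 in siB7-H3.

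The immunoproteasome genes were all above siCont in siPF, by small amounts, and PSMB10 was below it in siB7-H3. PSMB8, PSMB9 and PSMB10 encode the catalytic subunits that replace the constitutive ones under interferon gamma. PSMB8 had 1030 on the siCont array, 1111 on siPF and 1057 on siB7-H3, and its log2 differences were 0.11 and 0.04. PSMB9 had 1146, 1539 and 1251, with log2 differences of 0.43 and 0.13. PSMB10 had 451 on the siCont array, 552 on siPF and 320 on siB7-H3, which gave 0.29 and -0.50.
The values of PSMB10 lay on opposite sides of siCont in the knockdowns, and the SD of the siB7-H3 log2 differences in its level bin was 0.330. PSMB8, PSMB9 and PSMB10 each had 1 probe set, so no second reading was at hand. PSME1, a subunit of the PA28 activator that opens the proteasome, had 5773, 6783 and 6820, with log2 differences of 0.23 and 0.24. The probe set paired with PSME2, the partner subunit, and with MIR7703 had 6023, 6159 and 6211, which gave 0.03 and 0.04. The median of the 4 measured genes was 0.26 in siPF and 0.08 in siB7-H3.
The constitutive proteasome genes, a comparison list of 16 with 15 measured, had medians of 0.03 and 0.03. Of these 15 genes, 8 were above siCont in siPF and 9 in siB7-H3. None was past 1.5-fold.

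The regulators reached the level limit except CIITA. NLRC5, the activator of class I genes, had 422 on the siCont array, 520.3 on siPF and 475 on siB7-H3, with log2 differences of 0.30 and 0.17. RFX5, RFXAP and RFXANK form the RFX complex, which binds the X box in promoters of both classes. RFX5 had 1863, 1963 and 1726, RFXAP had 967, 873 and 763, and RFXANK had 1287, 1091 and 1135. RFXANK, which had 1 probe set, was below siCont on both knockdown arrays, and RFX5 and RFXAP were below it in siB7-H3 at both of their probe sets. The second probe set of RFX5 gave -0.55 in siB7-H3, at 827 in siCont and 564 in siB7-H3, and that of RFXAP gave -0.50, at 235 and 166. In siPF the probe sets of RFXAP differed in direction, with -0.15 and 0.20. No regulator at or over the limit reached 1.5-fold.
CIITA, the class II activator, was dim on every array, at 18.8 on the siCont array, 14.4 on siPF and 48.5 on siB7-H3, with log2 differences of -0.38 and 1.37. Its 3 probe sets were all higher in siB7-H3, with 1.37, 1.75 and 1.401, whereas in siPF they gave -0.38, 0.24 and 0.22. Its brightest reading over all probe sets and arrays was the 48.5 given above. The SD of the siB7-H3 log2 differences of all genes in the level bin of CIITA was 1.36.

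The class II genes other than CTSS were dim, as were the markers of blood cells, and their differences were large and mostly not shared between probe sets of a gene. The intensities of the 7 class II genes under the limit summed with CIITA to 338 on the siCont array, 208 on siPF and 242 on siB7-H3, and the highest single value was 129. In siPF 1 of the 31 genes was at least 2-fold higher and 4 were at least 2-fold lower. Over all 19775 genes 9.72% were at least 2-fold higher and 9.39% at least 2-fold lower, and either share comes to about 3 genes in 31. In siB7-H3 1 gene was higher and 2 were lower, against 8.75% and 9.45% of all genes. These shares are no close match for the list, because 23 of its 31 genes reached the level limit, against 10181 of all 19775. Genes past 2-fold were rare at or over the limit, and all those of the list were under it.
The 6 genes concerned were HLA-DRA, CD74, HLA-DMB, HLA-DPA1 and HLA-DPB1 in siPF, and CIITA, HLA-DPA1 and HLA-DPB1 in siB7-H3. HLA-DMB, a subunit of the exchange factor that loads class II, came closest to the limit, with 129 on the siCont array, 49.3 on siPF and 72.8 on siB7-H3. It was lower on both knockdown arrays, with log2 differences of -1.39 and -0.83, and had 1 probe set. The SD of the log2 differences of all genes in the level bin of HLA-DMB was 0.59 in siPF and 0.564 in siB7-H3. HLA-DMA, the other subunit, had 51.7, 65.7 and 30.9, with 0.34 and -0.74, so the subunits of this dimer differed in direction in siPF.
CD74, the invariant chain that guards the class II groove, had 52.03 on the siCont array, 15.2 on siPF and 62.0 on siB7-H3 at the probe set that stood for it. The remaining CD74 probe sets gave log2 differences of 2.29 and 0.74 in siPF, against -1.77 for the first. HLA-DRA, the invariant alpha chain of HLA-DR, had 3.98, 34.6 and 7.34, with 3.12 in siPF, and its other probe set gave 0.29.
HLA-DPB1 had 57.1 on the siCont array, 18.4 on siPF and 12.0 on siB7-H3, or log2 differences of -1.64 and -2.25, whereas its other probe set gave 0.92 and 1.63. HLA-DPA1, its alpha chain partner, had 20.9, 3.69 and 2.92 at the probe set that stood for it, with -2.50 and -2.84. Its other probe sets gave -4.40 and 1.31 in siPF and -4.03 and 1.46 in siB7-H3. HLA-DQA1 had 4.14, 7.03 and 5.68. A probe set paired with both HLA-DQA1 and HLA-DQA2, the only one naming several HLA genes that touched the list, had 5.66, 1.54 and 6.09.
Of the 6 dim genes of this group with more than 1 probe set, CIITA among them, 5 had probe sets on both sides of siCont in siPF and 4 in siB7-H3. In siB7-H3 the probe sets of CIITA and of CD74 were all above siCont. The SD of log2 differences in the dimmest level bin of all genes was 1.86 (siPF) and 1.76 (siB7-H3), and 0.272 and 0.243 in the brightest.

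CTSS, cathepsin S, was the exception on the class II side. This lysosomal protease, which removes the last part of the invariant chain in antigen-presenting cells, had 517 on the siCont array, 643 on siPF and 553 on siB7-H3, with log2 differences of 0.32 and 0.10. A second bright probe set gave 450.0, 550.0 and 607, with 0.29 and 0.43, and a dim one gave -0.42 in both comparisons. The bright probe sets were above siCont on both knockdown arrays, by less than 1.5-fold.

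**Figure D3:**
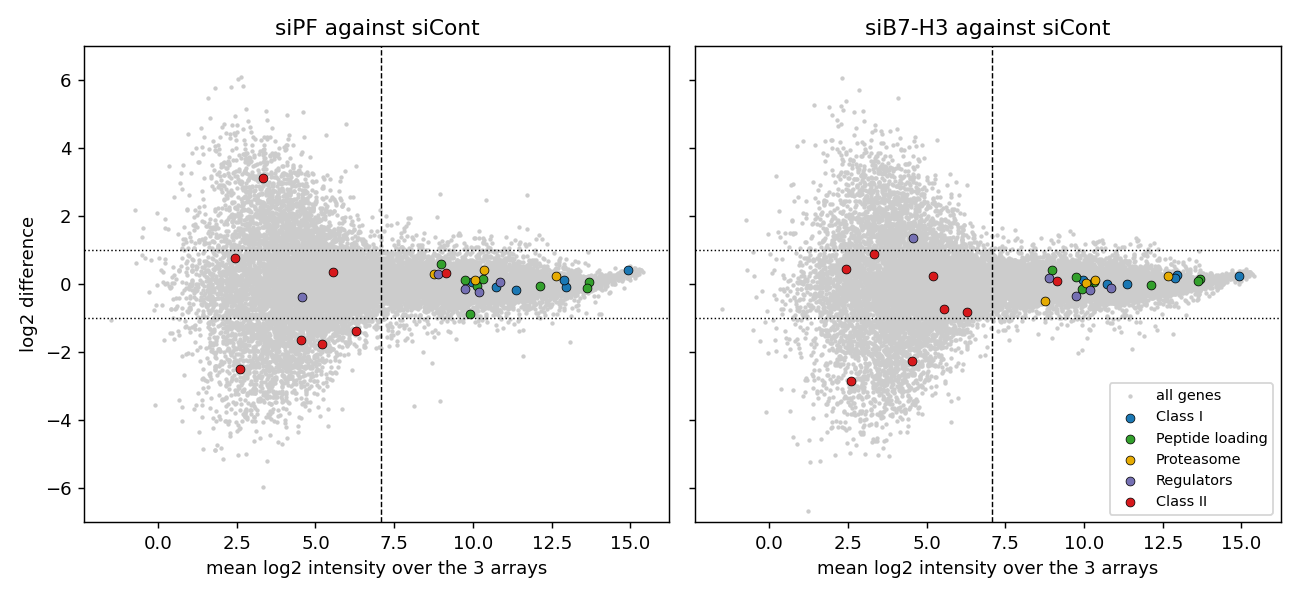
Log2 difference to siCont (vertical axis) against the mean log2 intensity over the 3 arrays (horizontal axis), for siPF (left) and siB7-H3 (right), 1 point per gene. Grey points are all 19775 genes and coloured points the 31 measured genes of the list. The list follows the funnel of all genes, with every coloured point beyond 2-fold (dotted lines) left of the level limit (dashed line).

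Other genes of the pathway, 51 in all with 47 measured, were used for comparison. Of these, 41 reached the level limit, and none of the 41 was past 2-fold in either comparison. Among them 22 lay above siCont in siPF and 25 in siB7-H3. Under the limit, CD1D, which presents lipids, had 0.816 on the siCont array, 9.47 on siPF and 8.38 on siB7-H3 and was past 2-fold in both comparisons. MR1, which presents vitamin B metabolites, had 14.3, 28.02 and 36.8 and was past 2-fold in siB7-H3. All 10 measured genes of interferon signalling reached the limit, and their median log2 difference was 0.12 in each comparison. IRF1, the interferon-induced factor that acts on class I promoters, had 596 on the siCont array, 723 on siPF and 572 on siB7-H3, which gave 0.28 and -0.06 on the log2 scale. The receptor genes IFNGR1 and IFNGR2 and the kinase genes JAK1 and JAK2 for interferon gamma were named after their values were seen. Each was above siCont on both knockdown arrays at the probe set that stood for it. Their log2 differences were 0.14, 0.30, 0.27 and 0.09 in siPF and 0.22, 0.04, 0.21 and 0.20 in siB7-H3. The other probe sets of IFNGR1, JAK1 and JAK2 were not examined here. Of the 10 measured genes, the siPF array had 2 below siCont and the siB7-H3 array had 3.
The highest of the 41 genes in siPF were NFYC, a subunit of NF-Y, at 0.35, and IFNGR2. The lowest were CTSL, cathepsin L, at 322 in siCont and 203 in siPF with a log2 difference of -0.66, and IFNAR2, a subunit of the type I interferon receptor, at -0.42. In siB7-H3 the highest were IRF2 at 0.27 and IRF9 at 0.23. The lowest were THOP1, a cytosolic peptidase that destroys peptides, at 834 in siCont and 518 in siB7-H3 with -0.69, and CTSD, cathepsin D, at -0.51. CTSL in siPF and THOP1 in siB7-H3 were the only genes of the 41 past 1.5-fold. The class II genes HLA-DOB, HLA-DQB1 and HLA-DRB1 were under the limit, like the class II genes of the main list, and HLA-DOA reached it narrowly with 144, 144 and 163.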

How the data were processed

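RNA of Rh-30 cells, 1 sample per siRNA, was labelled by the authors with a 3′ IVT kit and hybridized to U133 Plus 2.0 arrays. Per the labels, the deposited intensity values, linear and 1 per probe set, came from Affymetrix Expression Console 1.4.1. How probes were summarized and to what target arrays were scaled is not given in the sources used here, but with 2% of values trimmed from either end the mean of each array was 500.1. The number of arrays, 3, limits the precision.

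Intensities were taken to log2 with no floor. Symbols of the platform annotation were updated through RefSeq gene numbers. Of 54675 probe sets, 41092 named 1 gene, 1800 named several, 11721 named none and 62 were controls. A difference of at least 1 or at most -1 on the log2 scale counted as 2-fold. Named were all listed genes, and of the comparison genes IRF1, the 2 highest and 2 lowest bright ones per comparison and those past 2-fold. The interferon gamma receptor and kinase genes and the class II genes of the comparison list were named after their values were seen. Members and lists were chosen with earlier results of these data known. Alternatives covered the choice of probe set, scaling, a floor, the level limit, the fold and the mean. Python 3.11.15, numpy 2.4.6, pandas 2.3.3 and matplotlib 3.10.9 were used, and the functions were tested on simulated arrays.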

Additional observations from a re-analysis of the deposited data

How the results depend on the processing

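No paired analysis was possible because each condition had 1 array. For the 23 genes at or over the level limit, none of 264 log2 differences under the alternatives was past 2-fold, and 25 moved by more than 0.1. Part of the 264 could not move. The floor and the use of probe sets named with several genes left the values of these bright genes as they were. Centring shifted each by only 0.024 in siPF and 0.0032 in siB7-H3. Centring the arrays, quantile normalization and the use of probe sets named with several genes left the counts and group medians within the limits set. The count of genes 2-fold higher in siPF was 0 with a floor at the 60th percentile or above the level limit alone and 3 at 1.5-fold, and that of lower genes was 2 with the median over probe sets and 0 with the floor or the limit. In siB7-H3 the higher count was 2 with the median over probe sets, 0 with the floor or the limit and 2 at 1.5-fold, and the lower count was 1, 0 and 4. The class II median, -0.54 in siPF, was 0.32 with the median over probe sets, -1.39 without probe sets that can match several transcripts, 0.052 with the floor, 0.32 for the 1 gene over the limit and -0.34 as a mean. In siB7-H3 it was -0.32, and then -0.12, 0.25, 0.024, 0.10 and -0.62. The regulator median, -0.15 in siPF, was 0.12 with the median over probe sets, -0.036 without the shared probe sets or over the limit and 0.052 with the floor. In siB7-H3 it was -0.11, 0.031 without the shared probe sets and 0.18 as a mean. For siB7-H3 the class I median of 0.15 was 0.032 without the shared probe sets, the loading median of 0.07 was -0.042 with the median over probe sets, and the proteasome median of 0.08 was -0.023 as a mean. With the floor the lower values of CD74, HLA-DMB, HLA-DPA1 and HLA-DPB1 in siPF became 0.052 and those of HLA-DPA1 and HLA-DPB1 in siB7-H3 0.024, because dim genes then take the floor of each array, and CD74 in siPF was 0.74 with the median over probe sets. The cause of the other changes was not tested.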
